A study of Mus musculus with 6 samples.

Results

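Many mouse zinc finger genes stand side by side in arrays, and the genes described here are numbered Zfp genes (symbol Zfp plus digits) with another such gene within 100 kb. Of 20665 RefSeq protein-coding genes on chromosomes 1 to 19, 208 met this rule. They formed 50 clusters, chains of members at most 100 kb apart, and 152 further numbered Zfp genes stood alone. Chromosome 7 held 73 members, chromosome 17 held 32, chromosome 13 held 23 and chromosome 4 held 14. There were 15 clusters of 5 or more members, with 120 genes, 14 clusters of 3 or 4 and 21 pairs. The median length of members was 15.8 kb (quartiles 12.1 and 25.9 kb), against 20 kb for solitary Zfp genes. For all protein-coding genes it was 17.5 kb, with wider quartiles of 5.93 and 45 kb. Long members were few, with 12 of 208 at 40 kb or more, against 5743 of 20665 genes.

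Most such genes encode C2H2 zinc finger proteins, in which each finger is a small zinc-binding fold that reads a few bases of DNA. Many carry a KRAB domain that recruits TRIM28 (KAP1) and the H3K9 methyltransferase SETDB1, and these KRAB zinc finger proteins are known for silencing retrotransposons. The arrays grow by gene duplication, so neighbours resemble each other. In human cell lines the 3′ zinc finger exons of such genes are themselves known to carry H3K9me3. The protein deleted in the study, PHF2, belongs to the JmjC family and has been reported to remove H3K9me2, which marks repressed chromatin. It recognises H3K4me3, found at active promoters, through a PHD finger.

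All libraries came from gastrocnemius, a calf muscle, of male C57BL/6 mice aged 4 weeks, and every mouse carried Phf2 flox/flox. CKO mice also had Cre from the Acta1 transgene (Acta1 Cre+) and gave 1 H3K9me2 library and 1 input library. Ctrl mice lacked Cre (Acta1 Cre-) and gave 1 H3K9me2 library, 2 input libraries and 1 H3K4me3 library, which is titled wild type but has the Ctrl genotype label. Acta1 drives Cre in skeletal muscle fibres, and whole muscle also holds satellite, endothelial, immune and other cells that keep Phf2. The assay was CUT&RUN, which uses a nuclease tethered to an antibody to cut out the DNA around marked nucleosomes. In whole muscle a mark in few cells and a weak mark in all cells cannot be told apart. Whether the libraries came from separate animals is not stated, and with 1 library per mark and genotype the values below are descriptions of those libraries with no test between genotypes or gene groups. H3K4me3 was not mapped in CKO.

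On chromosomes 1 to 19 the H3K9me2 lists held 12508 peaks in CKO and 3595 in Ctrl, the input lists held 10683 in CKO and 2999 and 1277 in Ctrl, and the H3K4me3 list held 16066. The lowest local background, a guide to relative depth, was 0.544 fragments in CKO and 0.391 in Ctrl for H3K9me2, 0.371 in CKO and 0.294 and 0.292 in Ctrl for input, and 0.482 for H3K4me3. The median H3K4me3 peak rested on 53 fragments at its summit, the median H3K9me2 peak on 9 in CKO and 6 in Ctrl, and the median input peak on 7 in CKO and 6 in either Ctrl library. Of 12 skeletal muscle markers 10 had an H3K4me3 peak and 2, Acta1 and Ckm, had none. Among markers of other cell types, Pax7 of satellite cells and Pdgfra of fibroadipogenic cells had one, and Pecam1, Cdh5, Ptprc, Adgre1, Adipoq and Sox10 had none. A gene was counted as having a peak when a peak overlapped the gene or its 2 kb flanks by 1 bp or more. A fold is the authors' own ratio of summit fragments to local background, read here as having 1 added to each.

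Of the 208 members, 180 had a start in the RefSeq promoter table of GRCm38.p6 (mm10), and the other 28 have no strand or promoter below. The sequences printed here are the 100 bases before the start, 5′ to 3′ on the coding strand, with every CpG in capitals. The first set is shown because these genes had the highest H3K4me3 fold of the members, an H3K9me2 peak at the start, or both. They are Zfp748 (chr13:67553153-67553252, minus strand), Zfp606 (chr7:12478205-12478304, plus), Zfp551 (chr7:12422492-12422591, minus), Zfp273 (chr13:67813716-67813815, plus), Zfp868 (chr8:69625549-69625648, minus), Zfp869 (chr8:69716903-69717002, minus), Zfp963 (chr8:69749963-69750062, minus) and Zfp982 (chr4:147443014-147443113, plus).
Zfp748: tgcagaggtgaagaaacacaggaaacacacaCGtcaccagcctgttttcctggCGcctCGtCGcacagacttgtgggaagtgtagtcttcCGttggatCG
Zfp606: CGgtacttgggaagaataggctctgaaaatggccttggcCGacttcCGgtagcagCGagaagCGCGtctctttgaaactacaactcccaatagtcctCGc
Zfp551: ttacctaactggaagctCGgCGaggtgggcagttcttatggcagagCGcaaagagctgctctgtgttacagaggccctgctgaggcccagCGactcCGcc
Zfp273: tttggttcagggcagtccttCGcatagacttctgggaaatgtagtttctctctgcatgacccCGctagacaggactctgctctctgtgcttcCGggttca
Zfp868: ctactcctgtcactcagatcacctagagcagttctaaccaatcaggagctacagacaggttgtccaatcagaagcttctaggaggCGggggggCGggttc
Zfp869: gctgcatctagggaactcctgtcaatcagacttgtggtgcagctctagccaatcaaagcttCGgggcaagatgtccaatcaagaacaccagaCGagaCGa
Zfp963: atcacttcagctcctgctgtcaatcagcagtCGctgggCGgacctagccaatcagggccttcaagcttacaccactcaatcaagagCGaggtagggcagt
Zfp982: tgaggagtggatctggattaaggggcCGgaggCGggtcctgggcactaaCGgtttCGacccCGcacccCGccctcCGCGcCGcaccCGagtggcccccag

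The second set holds promoters, some of them similar to each other, of chromosome 4 members that had no H3K4me3 peak, Zfp985 (chr4:147553177-147553276, plus strand), Zfp534 (chr4:147702632-147702731, minus), Zfp987 (chr4:146097212-146097311, plus), Zfp979 (chr4:147642509-147642608, minus) and Zfp600 (chr4:146156727-146156826, plus).
Zfp985: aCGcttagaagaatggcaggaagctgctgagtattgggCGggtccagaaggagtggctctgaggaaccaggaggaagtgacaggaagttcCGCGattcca
Zfp534: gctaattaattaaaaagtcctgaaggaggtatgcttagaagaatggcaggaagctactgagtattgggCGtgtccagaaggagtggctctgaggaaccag
Zfp987: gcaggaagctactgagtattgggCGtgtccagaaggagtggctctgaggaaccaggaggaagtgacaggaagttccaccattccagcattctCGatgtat
Zfp979: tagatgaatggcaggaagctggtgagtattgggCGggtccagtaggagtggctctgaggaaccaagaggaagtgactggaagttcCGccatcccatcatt
Zfp600: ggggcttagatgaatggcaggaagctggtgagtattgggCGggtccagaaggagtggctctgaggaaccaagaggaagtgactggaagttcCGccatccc
These 100-base stretches held 1 to 4 CpG, against 10 in that of Zfp982, which stands in the same array as Zfp985 and had H3K4me3. Zfp985 and Zfp979 matched at 84% of bases over the whole 300-base promoter, Zfp600 and Zfp987 at 80.4%, and Zfp534 and its neighbour Zfp988 at 89.8%. Only pairs within a cluster were compared in this way. Across clusters, the promoters of Zfp600 and Zfp979 shared an identical stretch of 50 bases, and so did that of Zfp987 with those of Zfp534 and Zfp985.

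H3K4me3 lay at almost every clustered zinc finger gene in Ctrl muscle. Of the 208 members 186 (89.4%, exact 95% interval 84.4 to 93.3%) had a peak, beside 65.5% of all protein-coding genes and 132 of 152 solitary Zfp genes (86.8%, 80.4 to 91.8%). Such intervals cover counting error only. The share thus lay near that of numbered Zfp genes outside clusters, and both lay above that of all genes. Among genes of similar length the distance was widest for short genes, where 28 of 30 members under 10 kb had a peak (93.3%), beside 45.3% of all genes under 10 kb. Between 20 and 40 kb it was 63 of 74 members (85.1%), beside 75.4% of all genes of that length. Larger clusters were marked at least as fully as smaller ones, with 94.2% of members in clusters of 5 or more and 83% in clusters of 2 to 4.

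**Figure D1:**
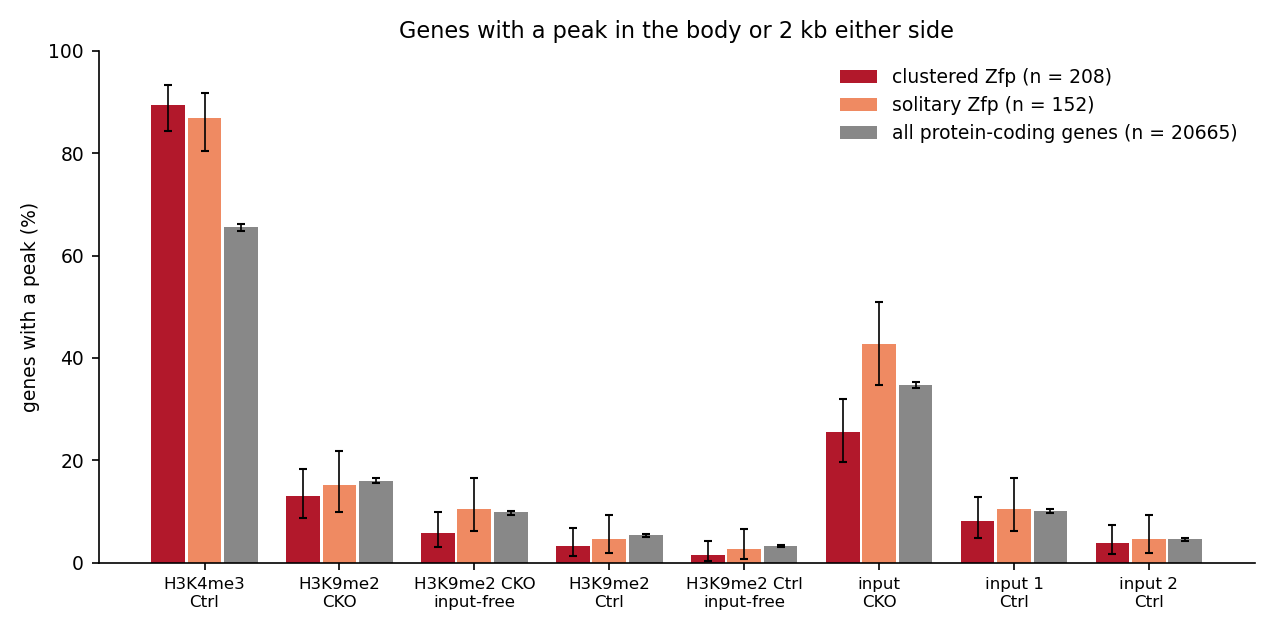
Share of genes with a peak in the body or 2 kb either side (y axis, %), for each peak list (x axis), in 208 clustered Zfp genes, 152 solitary Zfp genes and all 20665 protein-coding genes; error bars are exact 95% intervals for counting error. Clustered Zfp genes stood above all genes for H3K4me3 (89.4% and 65.5%) and below them in the CKO input (25.5% and 34.8%), with small shares in both H3K9me2 lists.

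The H3K4me3 peaks of the members were high in fold but narrow and modest in fragments. Over their 204 peaks the median fold was 12.5, beside 9.76 for solitary Zfp genes and 10.4 for all genes. The median summit held 39.5 fragments, beside 64 and 59, and the median local background was 2.06 fragments, beside 5.04 and 4.06, so the higher fold stood beside a lower background and not beside more fragments. The median peak was 640 bp wide (quartiles 537 and 780), beside 735 bp for solitary Zfp genes and 785 bp for all genes. Only 3 of the 204 peaks were wider than 1500 bp (1.47%), beside 5.08% of the peaks at solitary Zfp genes and 5.43% of those at all genes. Of the 204 peaks 12 lay in the windows of a pair of members and were counted for both. Some lay at the start of a single member while the other had its own start peak. At Zfp28 the shared peak had a fold of 15.4, and Zfp78 had its own with 7.71. Others were not assigned. Examples are a peak with a fold of 18.2 and 168 fragments that lies inside Zfp53 and in the flank of Zfp52, and a peak with a fold of 20.9 and 124 fragments in the windows of Zfp944 and Zfp758.

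The member with the highest H3K4me3 fold was Zfp748 on chromosome 13, with a peak at 67552740 to 67553241, a fold of 23.2 and 121 fragments. It was followed by Zfp879 (fold 22.4), Zfp445 (22.1), Zfp606 (22), Zfp617 (21.6) and Zfp868 (21.6). Zfp445 encodes a KRAB zinc finger protein known to maintain methylation at imprinted loci in the mouse, and its peak held 116 fragments. The Zfp879 peak lay wholly outside the gene, on chromosome 11 at 50827259 to 50827800, and may belong to a neighbour. Among other members with a known role, Zfp809, which binds a primer binding site of murine leukaemia viruses and silences them, had a fold of 18.2 with 84 fragments. Zfp568, which represses a placental transcript of Igf2 in the mouse embryo, had a fold of 14.6 with 122 fragments. Zfp746 (PARIS), a repressor of the mitochondrial regulator PGC-1α, had a fold of 10.7 with 74 fragments. Zfp932, which silences endogenous retroviruses, had 8.75 with 21 fragments, and Zfp260, a cofactor of GATA4 in heart muscle, had 4.71 with 22 fragments.

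In several arrays the fold varied widely, while over all members it ran from 3.98 to 23.2. In the largest cluster, 15 genes from Zfp84 to Zfp146 on chromosome 7, 14 had a peak, from Zfp260 at 4.71 to Zfp74 at 19.3, and Zfp940 had none. In the chromosome 13 cluster from Zfp712 to Zfp748, which overlaps the Rsl genes named for control of sex-limited liver proteins, 13 of 14 had a peak, from Zfp455 at 4.59 to Zfp748 at 23.2, and Zfp459 had none. All 13 members from Zfp677 to Zfp943 on chromosome 17 had a peak, from Zfp54 at 8.16 to Zfp995 at 20.6. So did all 10 from Zfp180 to Zfp94 on chromosome 7, from Zfp114 at 5.4 to Zfp235 at 15.4. Among the 15 largest clusters the median fold was lowest, at 8.04, in the array on chromosome 4 from Zfp978 to Zfp933. It was highest, at 19.3, in the array on chromosome 9 from Zfp560 to Zfp846. That ranking takes the highest fold in each window, which can belong to a neighbour. The peak of 19.3 lay at the start of Zfp426 and also in the window of Zfp266, whose own start peak had 17.6. The highest peak of Zfp846 (19.5) lay outside the gene, and the peak at its start had 13.6.

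**Figure D2:**
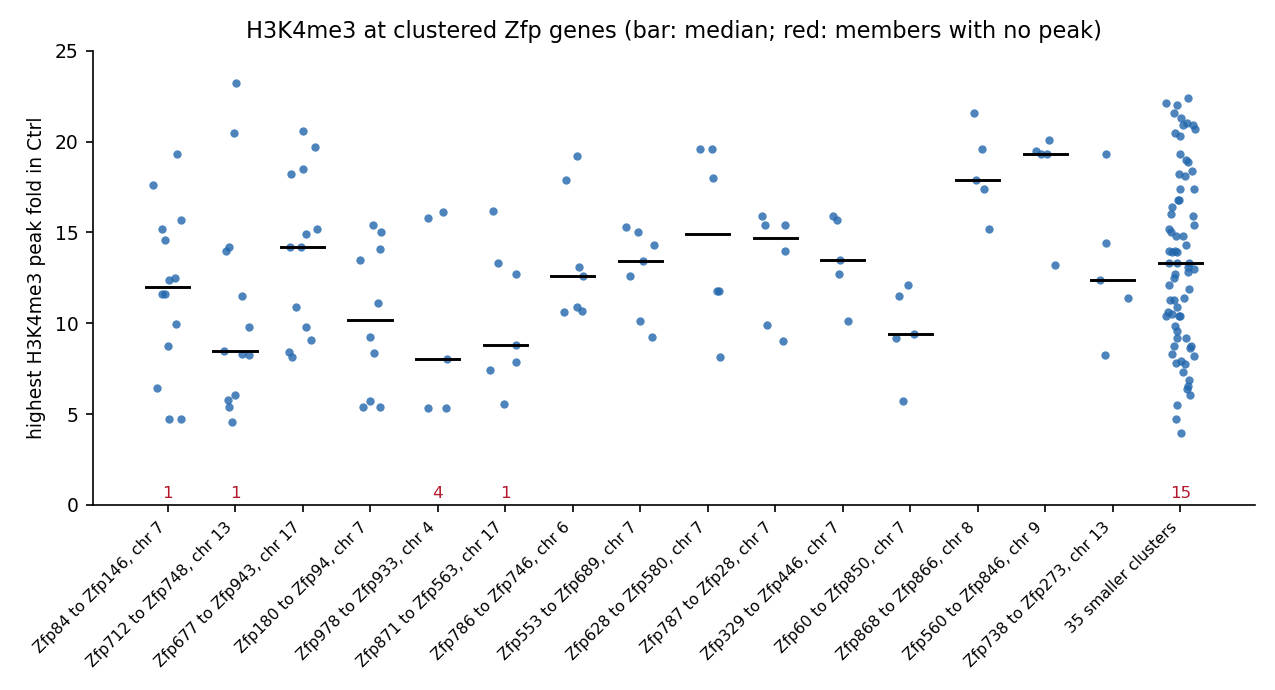
Highest H3K4me3 peak fold in Ctrl (y axis) of each member (points) in the 15 largest clusters and in the 35 smaller ones (x axis); bars are medians over members with a peak and red numbers count members without one. In some arrays the folds spread widely, as in the second cluster from 4.59 to 23.2, and the fifth, on chromosome 4, had 4 members without a peak.

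Members without H3K4me3 were concentrated on 2 chromosomes. Only 6 of 14 members on chromosome 4 (42.9%) and 6 of 11 on chromosome 2 (54.5%) had a peak, while the share on each of the other 11 chromosomes with members was 83.3% to 100%. Of the 22 members without H3K4me3, 19 had no peak in any of the 6 lists (86.4%), beside 81.2% of all genes without H3K4me3. The cluster with no marked member was the pair Zfp987 and Zfp600 on chromosome 4. In the array from Zfp978 to Zfp933, 5 of 9 members had a peak, and Zfp534, Zfp979, Zfp985 and Zfp988 had none. In 33 of the 50 clusters every member had a peak. Arrays on chromosomes 2, 4 and 13 are known from mouse embryonic stem cells, where deleting them releases retrotransposons, and on chromosome 13 H3K4me3 lay at 22 of 23 members.

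Shared sequence went together with absence of a peak. Of the 180 members with a promoter sequence, 28 (15.6%) had an identical stretch of 50 bases in another gene's promoter, beside 8% of all promoters. Of those 28, 17 (60.7%) had H3K4me3 at the start, against 130 of the 152 members without such a stretch (85.5%). Among all promoters it was 12.7% of those with such a stretch, against 58.9% of those without. Members without H3K4me3 at the start also had fewer CpG in the promoter, with a median of 5 against 13. Some members without it at the start had a peak elsewhere in the gene or its flanks. Leaving out promoters with a shared stretch moved the share at 4 to 9 CpG from 70.5% to 80% of members. At 10 to 19 CpG it was 90.4% before and 89.7% after. The parts of shared sequence and of CpG number were not tested. In the array from Zfp978 to Zfp933, 5 of 7 promoters had one, among them Zfp534, Zfp979, Zfp985 and Zfp988. Reads from such sequence may be unplaceable or dropped, so peaks of these members, present or absent, are uncertain. How the authors treated reads with several matches was not given in the sources used here, and the part of read placement in the missing peaks was not tested.

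**Figure D3:**
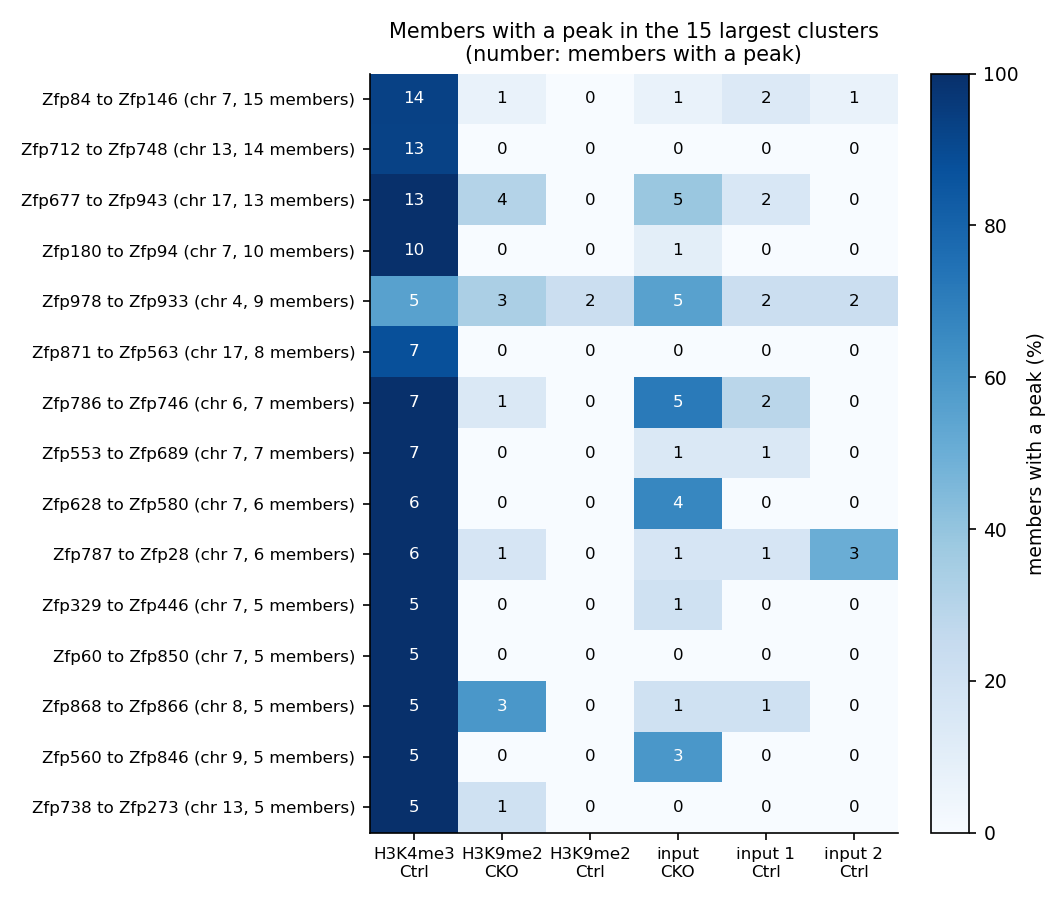
Number of members with a peak (printed) and their share (shade, %) in the 15 largest clusters (rows) for each of the 6 lists (columns). H3K4me3 filled most clusters, while the second cluster, on chromosome 13, had 0 members with a peak in any H3K9me2 or input list. The same held for the clusters from Zfp871 to Zfp563 and from Zfp60 to Zfp850. Among all genes 39.1% had an input peak in some list and 16% an H3K9me2 peak in CKO.

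H3K4me3 at the members lay just inside the gene. Of all 204 peaks 153 were centred within 1 kb of a start, at a median of 150 bp into the gene (quartiles 54 and 237 bp). Of the 153, 113 were centred 0 to 300 bp into it. Only 3 peaks lay within 1 kb of a 3′ end and 12 lay elsewhere inside a gene. Another 29 belonged to members of unknown strand and could not be placed. The zinc fingers of these genes are usually encoded by the last exon, and few H3K4me3 peaks lay near it.

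Members often had H3K4me3 at promoters with few CpG, a class that was rarely marked among all genes. The 300-base promoter window (250 bases before the start and 50 after it) held a median of 11 CpG in members, 17 in solitary Zfp genes and 14 in all genes. H3K4me3 overlapped it in 147 of 180 members (81.7%), 95 of 121 solitary Zfp genes (78.5%) and 55.2% of all genes. Among promoters of 4 to 9 CpG, 43 of 61 members had H3K4me3 (70.5%, 57.4 to 81.5%), beside 15 of 30 solitary Zfp genes (50%, 31.3 to 68.7%) and 525 of 2864 promoters of all genes (18.3%, 16.9 to 19.8%). Without promoters that share 50 bases with another gene it was 36 of 45 members (80%), beside 18.2% of all genes. At 10 to 19 CpG the shares were 90.4% of members, 92.5% of solitary Zfp genes and 76.3% of all genes, and at 20 or more they were 97.3%, 93.3% and 95.1%. Examples of such CpG-poor starts are Zfp868, with 6 CpG and a fold of 21.6, Zfp273, with 7 and 19.3, and Zfp869, with 8 and 19.6. Members without H3K4me3 at the start had a median of 5 CpG, against 13 for those with it. Some members without it at the start had a peak elsewhere in the gene or its flanks. Of the 152 promoters with no shared stretch, 130 had H3K4me3 at the start and 143 at the gene. The peak of Zfp14, with 12 CpG, ended just short of the 300-base window. With the stricter requirement of a fold at or above the list's median, the share at 4 to 9 CpG was 34.4% of members, beside 36.7% of solitary Zfp genes and 8.76% of all genes.

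**Figure D4:**
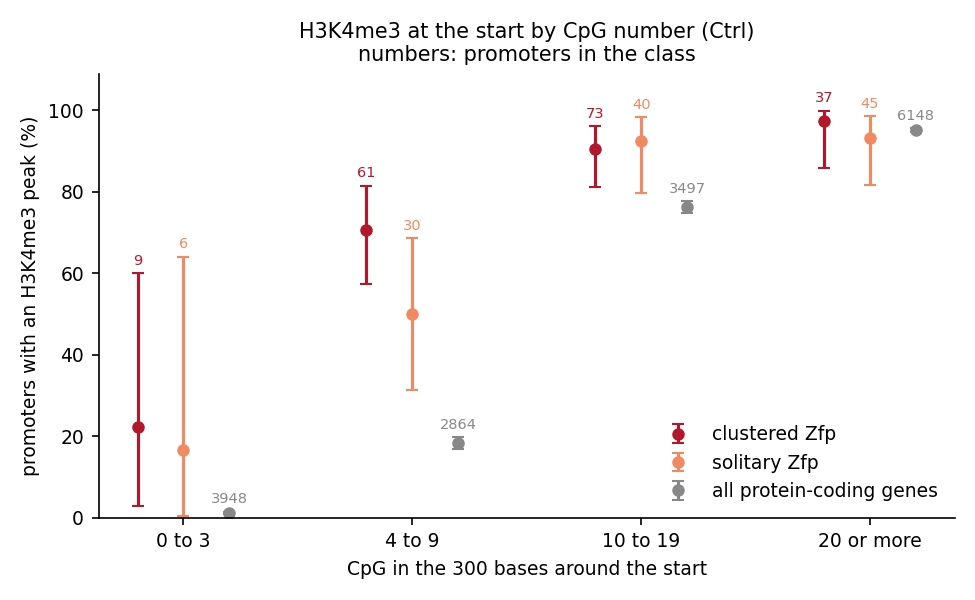
Share of promoters with an H3K4me3 peak in Ctrl (y axis, %) by the number of CpG in the 300-base window (x axis) in clustered Zfp genes, solitary Zfp genes and all protein-coding genes; error bars are exact 95% intervals and numbers are promoters. In the class of 4 to 9 CpG the shares were 70.5%, 50% and 18.3%, and at 20 or more CpG they were 97.3%, 93.3% and 95.1%.

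Short promoter motifs were counted in the same window on both strands. CCGGAAG, the core that ETS factors recognise, stood in 22.2% of member promoters, 24% of solitary Zfp promoters and 12.3% of all promoters. CCAAT, the NF-Y box, stood in 53.3%, 45.5% and 39.1%, and in 49.7% of members with H3K4me3 at the start, against 69.7% of those without. It was present in all 5 promoters of the chromosome 8 cluster, and copies can be read in the sequences of Zfp868, Zfp869 and Zfp963 above. GGGCGG, the GC box of SP factors, stood in 37.8%, 52.9% and 47.3%. TATAAA, the TATA box, stood in 4.44%, 8.26% and 13.5%, GCGCATG, part of the NRF1 site, in 8.33%, 4.13% and 4.93%, and AAGATGGC, the YY1 core, in 3.89%, 8.26% and 3.21%. These are counts of letters and show no binding.

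H3K9me2 peaks were few at the members in both genotypes. In CKO 27 of 208 members had a peak (13%, 8.73 to 18.3%), beside 16% of all genes, and in Ctrl 7 had one (3.37%, 1.36 to 6.81%), beside 5.38% of all genes. These shares lay near those of all genes. The CKO list was also longer at large, and shortened to as many peaks as the Ctrl list it held a peak at 5.29% of members, beside 4.6% of all genes. Whether the difference came from genotype, depth or the library cannot be told apart with 1 library each. In 5 members both lists had a peak (2.4%, beside 3.31% of all genes), in 22 only the CKO list had (10.6%, beside 12.7%), and in 2 only the Ctrl list had (0.962%, beside 2.07%).

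Most of those peaks also lay on input peaks. Of 40 H3K9me2 peaks at members in CKO, 25 overlapped a peak of an input list (62.5%), beside 33.5% of the H3K9me2 peaks at all genes, and in Ctrl 5 of 8 did. Peaks that overlapped no input peak, here called input-free, were found at 12 members in CKO (5.77%, 3.02 to 9.86%), beside 9.82% of all genes and 10.5% of solitary Zfp genes. In Ctrl they were found at 3 members (1.44%, 0.298 to 4.16%), beside 3.26% of all genes and 2.63% of solitary Zfp genes. Under 10 kb, input-free CKO peaks lay at 2 of 30 members (6.67%), beside 3.92% of all genes of that length. At 10 to 20 kb it was 4.35% and 4.46%, and at 20 to 40 kb 4.05% and 7.51%. From 40 kb it was 3 of 12 members (25%) and 22.4% of all genes. Over the 8.34 Mb spanned by the clusters, input-free H3K9me2 peaks numbered 2.64 per Mb in CKO and 0.479 per Mb in Ctrl, beside 3.9 and 1.07 per Mb of these chromosomes. H3K4me3 over the same spans numbered 28.4 peaks per Mb, beside 6.53. Whole chromosomes include much sequence outside genes. Of all input-free H3K9me2 peaks only 31.6% in CKO and 29.3% in Ctrl lay in a gene or its flanks. Within genes and flanks the densities per Mb were 2.79 at members and 2.89 at all genes in CKO, and 0.557 and 0.738 in Ctrl. For H3K4me3 they were 37.9 and 13.6. Each of the 12 members with an input-free peak in CKO and each of the 3 in Ctrl also had an H3K4me3 peak, as did 89.4% of all members. Among all genes 1380 of 2030 with an input-free peak in CKO and 478 of 673 in Ctrl had one. H3K9me2 often forms broad domains, and these lists of narrow peaks do not measure them.

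Zfp606 and Zfp993 were the members with an input-free H3K9me2 peak in both genotypes. At Zfp606 the CKO peak at 12478296 to 12478727 on chromosome 7 had a fold of 7.77 and 11 fragments, and the Ctrl peak at 12478343 to 12478705 had 6.47 and 8 fragments. Both lay within the gene's H3K4me3 peak at 12478283 to 12478893 (fold 22, 127 fragments), and no input list had a peak at the gene. Its neighbour Zfp551 had an input-free peak in Ctrl alone, with a fold of 6.05 and 9 fragments, centred 41 bp before its start. At Zfp993 overlapping peaks lay deep inside the gene model on chromosome 4, at 146932297 to 146932695 in CKO (fold 5.22, 8 fragments) and at 146932476 to 146932942 in Ctrl (fold 5.93, 9 fragments). Zfp993 had 3 further input-free peaks in CKO. The one at 146739686 to 146740087 had a fold of 7.42 and 16 fragments, the most of any input-free peak at a member, and the others had folds of 6.48 and 4.09 with 9 fragments each.

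At other members the input-free peaks of CKO also rested on few fragments. Zfp273 had a fold of 7.61 with 12 fragments, Zfp963 had 6.48 with 9, Zfp263 had 6.45 with 9, Zfp2 had 6.02 with 9 and Zfp672 had 5.83 with 8. The peak shared by Zfp942 and Zfp943 and that of Zfp141 had a fold of 3.89 and 5 fragments each. All of these lay on H3K4me3 peaks close to a start. Zfp978 and Zfp991 had input-free peaks inside their gene models, with highest folds of 5.32 and 5.27. No Ctrl peak was listed at any of these genes apart from Zfp978, whose Ctrl peaks overlapped input.

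Zfp978 and Zfp993 need separate counting, because their RefSeq models run for 267 kb and 479 kb across other members. They held 16 of the 40 H3K9me2 peaks at members in CKO and 3 of the 8 in Ctrl, but 6 of the 204 H3K4me3 peaks. Among input-free peaks they held 7 of 15 in CKO and 1 of 3 in Ctrl. Without both genes, input-free peaks lay at 4.85% of members in CKO and 0.971% in Ctrl.

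In a chromosome 8 cluster of 5 members, Zfp868, Zfp869 and Zfp963 had H3K9me2 peaks in CKO at nearly the same distance from their starts, centred 169, 167 and 165 bp into the gene. Their folds were 11.4, 6.48 and 6.48 on 19, 9 and 9 fragments, and none of them had a Ctrl peak. All of these peaks overlapped H3K4me3 peaks with folds of 21.6, 19.6 and 17.9. Those of Zfp868 and Zfp869 also lay on input peaks, of CKO with a fold of 5.58 and of the first Ctrl input with 5.35. Their promoters matched each other at only 57.7% to 61% of bases. Zfp964 and Zfp866 in the same cluster had H3K4me3 folds of 17.4 and 15.2 and no H3K9me2 peak.

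The H3K9me2 peaks of the members that lay near a start lay at a distance from it similar to that of H3K4me3 peaks. In CKO 18 of 40 (45%) were centred within 1 kb of a start, beside 153 of 204 H3K4me3 peaks (75%), at a median of 152 bp into the gene, and 14 of these 18 lay 0 to 300 bp into it. Another 7 of the 40 lay elsewhere inside a gene, 2 outside the gene, and 13 belonged to members of unknown strand (32.5%, beside 14.2% for H3K4me3). The shares of 45% and 75% count peaks of unknown strand as not near a start. The long models of Zfp978 and Zfp993 also held 16 of the 40, beside 6 of the 204. The shares are therefore not a like comparison of the marks. In Ctrl 5 of 8 H3K9me2 peaks lay within 1 kb of a start, at a median of 103 bp. The CKO input had 26 of 64 peaks within 1 kb, at a median of 164 bp. Where the strand was known, H3K9me2 had 0 peaks within 1 kb of a 3′ end in either genotype, and the CKO input had 4. Of the H3K9me2 peaks at members, 26 of 40 in CKO (65%) overlapped an H3K4me3 peak, beside 70.8% at solitary Zfp genes and 36.2% at all genes. In Ctrl 6 of 8 did (75%), beside 85.7% at solitary Zfp genes and 34.8% at all genes.

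**Figure D5:**
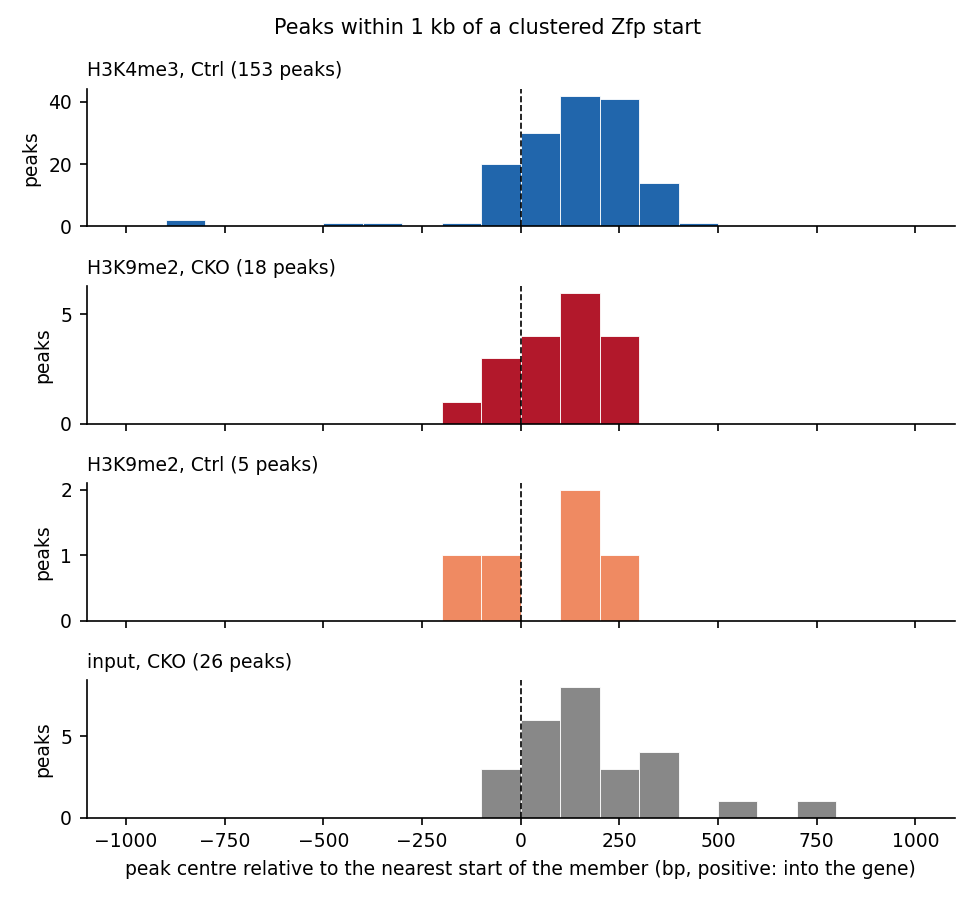
Number of peaks (y axis) by distance of the peak centre from the nearest start of a member (x axis, bp, positive into the gene, bins of 100 bp), for H3K4me3 in Ctrl, H3K9me2 in CKO, H3K9me2 in Ctrl and the CKO input, drawn for the peaks centred within 1 kb of a start alone (153 of 204, 18 of 40, 5 of 8 and 26 of 64). Over these peaks the medians were 150, 152, 103 and 164 bp into the gene.

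Among H3K9me2 peaks that overlapped input, the highest was that of Zfp978 in CKO, at 147124677 to 147125074 on chromosome 4, with a fold of 13.1 and 52 fragments. Input peaks lay at the same place in CKO (fold 9.4, 22 fragments) and in both Ctrl inputs (9.65 with 17 fragments and 6.45 with 12), and an H3K4me3 peak with a fold of 16.1 overlapped it. Zfp992 had no H3K4me3 peak and showed the same recurrence, with a fold of 9.72 and 26 fragments for H3K9me2 in CKO, 11.3 and 23 fragments in the CKO input, and 9.11 with 16 and 7.18 with 14 in the Ctrl inputs. Neither had a Ctrl H3K9me2 peak at these places. Zfp619 on chromosome 7 had H3K9me2 at its start in both genotypes, with a fold of 8.25 and 14 fragments in CKO and 7.56 with 12 in Ctrl, on an H3K4me3 peak of 20.7 and a CKO input peak of 4.49. Zfp637 likewise had 5.18 in CKO and 5.03 in Ctrl, with 5.92 in the CKO input.

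The input lists themselves were thinner at members than at other genes in CKO. A CKO input peak lay at 53 members (25.5%, 19.7 to 32%), beside 34.8% of all genes and 42.8% of solitary Zfp genes (34.8 to 51%). With CKO input peaks at or above the list's median fold it was 18.3% of members, beside 19.4% of all genes, so the distance narrowed. By gene length, a CKO input peak lay at 7 of 30 members under 10 kb (23.3%), beside 16.5% of all genes of that length. At 10 to 20 kb it was 19.6% and 28.4%, at 20 to 40 kb 31.1% and 39.3%, and from 40 kb 5 of 12 members and 59.2%. Ctrl input 1 had a peak at 17 members (8.17%), beside 10.1% of all genes, Ctrl input 2 at 8 (3.85%), beside 4.56%, and either at 20 (9.62%), beside 13.3%. Among genes with H3K4me3 the CKO input was present at 50 of 186 members (26.9%, 20.7 to 33.9%), beside 60 of 132 solitary Zfp genes (45.5%, 36.8 to 54.3%) and 48.1% of all genes. For H3K4me3 peaks of 500 to 749 bp, 12.7% at members and 26% at all genes overlapped a CKO input peak, while at 750 to 999 bp it was 41.3% and 45.1%. At 300 to 499 bp it was 6.06% and 10.6%, and at 1000 to 1499 bp 3 of 12 at members (25%) and 52.1% at all genes.

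Per Mb of gene and flank the order was different. The members' windows, merged to 5.38 Mb, held 11.9 CKO input peaks per Mb, beside 10.6 at solitary Zfp genes and 7.21 at all genes, and 3.9 and 2.23 per Mb in the Ctrl inputs, beside 1.88 and 0.827 at all genes. H3K9me2 at members was also denser, with 7.43 peaks per Mb in CKO and 1.49 in Ctrl, beside 4.35 and 1.18 at all genes. Solitary Zfp genes lay below all genes here, with 3.3 in CKO and 0.962 in Ctrl. Input-free H3K9me2 peaks at members were not denser, with 2.79 in CKO and 0.557 in Ctrl, beside 2.89 and 0.738 at all genes. The long models of Zfp978 and Zfp993 held 12 of the 64 CKO input peaks and 6 of the 21 and 6 of the 12 Ctrl input peaks. Without these genes the density of input peaks was 11.2 per Mb for the CKO library and 3.16 and 1.26 for the Ctrl libraries, that of H3K9me2 5.27 in CKO and 1.05 in Ctrl, and that of input-free H3K9me2 1.9 in CKO and 0.422 in Ctrl, so that H3K9me2 in Ctrl lay below all genes.

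The highest input folds in CKO were those of Zfp992 (11.3), Zfp978 (9.4), both on chromosome 4, Zfp287 (7.67), Zfp623 (7.21), Zfp26 (6.77) and Zfp105 (6.7). In Ctrl input 1 they were Zfp978 (9.65), Zfp992 (9.11), Zfp777 (8.35), Zfp979 (6.95), Zfp993 (6.55) and Zfp688 (5.47). In Ctrl input 2 they were Zfp982 (7.96), Zfp992 (7.18), Zfp978 (6.45), Zfp787 (5.85) and the peak shared by Zfp28 and Zfp78 (5.2). A peak in all 3 inputs was found at 4 members (1.92%), beside 1.06% of all genes. H3K4me3, H3K9me2 and input together were found at 19 members (9.13%), beside 10.4% of all genes, led in H3K4me3 fold by Zfp617, Zfp868, Zfp619, Zfp995, Zfp869 and Zfp52. None of the 23 members on chromosome 13 had an input peak in any list, beside 29.8% of all members and 39.1% of all genes with one. Zfp273 was the only one of the 23 with H3K9me2, in CKO, beside 13% of all members and 16% of all genes.

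A list of 23 genes, mostly partners of KRAB zinc finger proteins or genes that set H3K9 methylation, also held Phf2. By symbol 22 were matched, and all 22 had an H3K4me3 peak, beside 65.5% of all genes. Among them were Setdb1, the H3K9 methyltransferase that KRAB zinc finger proteins recruit (fold 19.5), and Trim28, their main corepressor (12). Zfp57, which guards imprints, had a fold of 12.1 and Phf2 of 7.81. H3K9me2 lay at 2 of the 22 in CKO, beside 16% of all genes, and at 1 in Ctrl, beside 5.38%. Hdac2, a histone deacetylase, had it in both genotypes (folds of 4.91 in CKO and 4.65 in Ctrl), on a CKO input peak of 6.18. Trim28 had an input-free H3K9me2 peak in CKO, with a fold of 6.2, and none was listed in Ctrl. A CKO input peak lay at 16 of the 22, beside 34.8% of all genes and 48.1% of all genes with H3K4me3. Phf2 had neither an H3K9me2 nor an input peak, which does not check the deletion.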

How the data were processed

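CUT&RUN peak lists of 6 libraries were used, grouped by the labels' titles and genotypes. Per the submitters' processing notes, Bowtie2, mm10 and MACS2 were used for alignment and peak calling, with versions not given in the sources used here. For each peak the authors deposited a fold (ratio of summit to local background), the −log10 of its p-value and of its q-value, a score of 10 times −log10 q rounded down, and a summit offset that was not used. The lowest −log10 q in each deposited list was 1.3 to 1.34, near a q of 0.05. The making of the inputs and any use of them in peak calling were not given in the sources used here.

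Genes, promoters and starts came from the RefSeq tables of GRCm38.p6. For genes with several starts the most upstream one was used for CpG, motifs and H3K4me3 at the start. Fragments at a summit were recovered from fold and Poisson p, with 1 added to both summit and background in the fold (98.6% to 100% of peaks per list, match within 0.1%). Recovery and overlaps were tested on simulated data. Shares carry exact 95% Clopper-Pearson intervals. Members, comparison genes and lists were chosen with earlier results of these data known. Named were, by rule, the 6 highest members per list, input-free H3K9me2 members, extremes of the 5 largest clusters, members with H3K4me3, H3K9me2 and input, and up to 6 members without H3K4me3. Zfp809, Zfp568, Zfp746, Zfp932, Zfp987, Zfp600, Zfp141, Zfp964, Zfp866, pairs sharing a peak and the CpG classes were added after values were seen. A marker gene of the tissue check is not reported here. Protein sequences were not used here, so zinc fingers were not counted. Computation used edlib 1.3.9.post1, scipy 1.17.1, matplotlib 3.10.9, pandas 2.3.3, numpy 2.4.6 and Python 3.11.15.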

Additional observations from a re-analysis of the deposited data

How the results depend on the processing

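With 1 library per mark and genotype, peaks differ by counting error and library, and no mark has a replicate spread. H3K9me2 and input peaks rest on few fragments, and sequence shared between members limits read placement. No paired analysis was possible because the groups share no replicate numbers beyond 1 and no test was made.

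Of 80 values for 9 shares under 14 alternatives, 67 stayed within the interval of the value reported and 13 did not. With peaks at or above their list's median fold, members with H3K4me3 were 62% (all genes 41.5%), H3K9me2 in CKO 7.21% (8.15%), CKO input 18.3% (19.4%), and H3K4me3 at 4 to 9 CpG 34.4% (8.76%). At q of 1e-05 or less, H3K9me2 was 6.25% in CKO and 0.481% in Ctrl (6.19% and 0.552% of all genes), input 4.81% in CKO and 2.88% in Ctrl (6.71% and 1.15%), and CKO input among members with H3K4me3 4.52% (9.3% of all genes with H3K4me3). With the CKO lists as long as those of Ctrl, H3K9me2 in CKO was 5.29% (all genes 4.6%), input-free 1.92% (2.86%) and CKO input 11.1% (10.9%). Leaving out either Ctrl input gave members with Ctrl input of 3.85% to 8.17% (4.56% to 10.1%), the lower without input 1. Leaving out Zfp978 and Zfp993, densities included, the share of CKO input among members with H3K4me3, and the CpG class were alternatives chosen after seeing the data.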
